A study of Saccharomyces cerevisiae with 4 samples.

Results

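Transfer RNA genes (tDNAs) are short genes read by RNA polymerase III. In budding yeast a tDNA can quiet a neighbouring gene read by RNA polymerase II, and some tDNAs act as barriers between chromatin domains. The 9 reading frames described here lie next to 7 of the 10 tRNA genes annotated on chromosome III, and were taken by name from 6706 reading frames measured: KCC4, YCR006C, DFP3, CTO1, RBP95, SRD1, MAK32, RHB1 and FEN2. They are set out site by site, for a strain labelled as lacking the tRNA genes of chromosome III (tDNA-less) against wild type. The immediate flanks of the 7 genes hold 11 reading frames. SAT4 and YCL021W-A, the remaining flanks, were called as different between the strains and are not among the 9, so the 9 are not a complete set of flanking frames.

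Both strains are MATa strains of the W-303 background and carry ade2-1, trp1-1 and ura3-1. The tDNA-less strain (JKY690) carries deletions on chromosome III written t0D, t1D, t3D, t4D, t5D, t6D and t7D. The pair t8D+t9D is replaced with LEU2, and a further entry reads T1+T7::HIS3. Wild type (JRY2334) also carries his3-11,15, a mutant leu2 allele and can1-100, none of which the tDNA-less genotype lists. The labels do not say which tRNA gene each number stands for, and a site is therefore named here by its tRNA. The numbers pass from t1D to t3D, so whether every site named here is deleted cannot be read from the labels. The comparison asks how expression differs between the 2 strains. Loss of tRNA genes cannot be told apart from the other listed differences, at HIS3, LEU2 and CAN1. Each strain has 2 libraries, labelled as biological replicates, from early log cultures in rich medium (YPD).

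Depth ran from 12.94 to 14.46 M estimated counts (M, 1000000) in the tDNA-less libraries and from 12.48 to 19.76 M in wild type. The 4 most abundant reading frames were YSH1, ATG7, LTO1 and MSK1. They held 45.09% and 36.07% of these counts in tDNA-less and 39.56% and 30.63% in wild type. Why these frames held so large a share was not tested. Among the markers, HIS3, of histidine synthesis, had 403.5 and 461.6 CPM in the tDNA-less libraries, against 12.41 and 8.50 CPM in wild type (CPM are counts per 1000000 of the scaled library). LEU2, of leucine synthesis, had 59.49 and 54.31 CPM in the tDNA-less libraries, against 110.4 and 135.6 CPM in wild type. The 5 markers of a cells lay between 22.7 and 18900 TPM (transcripts per 1000000, a level per length) in the 4 libraries, and the 3 markers of alpha cells between 0 and 1.23 TPM. Across 6205 reading frames tested, 93, or 1.5%, were called at an adjusted p under 0.05 by edgeR's quasi-likelihood test. The tDNA-less strain was higher in 50 (0.806%) and lower in 43 (0.693%). The count was 21 without tDNA-less replicate 1 and 30 without tDNA-less replicate 2. On the log2(TPM + 1) scale the split was 17 higher and 35 lower, with the median of all reading frames at -0.11.

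The 7 tRNA genes are the elements whose neighbours were measured, and their sequences are shown because they name each site. They are given 5′ to 3′ from the R64 reference genome, whose chromosome III has the strain S288C sequence rather than that of W-303. RNA polymerase III reads such genes from promoter elements inside them, the A box and the B box. Capitals mark an exact match to the B box letters, taken as GGTTCGA, any 2 bases, then CC.
tRNA-Glu, chrIII:82462-82533, minus strand: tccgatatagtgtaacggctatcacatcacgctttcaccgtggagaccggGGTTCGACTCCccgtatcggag
tRNA-Pro (SUF2), chrIII:123577-123648, minus strand: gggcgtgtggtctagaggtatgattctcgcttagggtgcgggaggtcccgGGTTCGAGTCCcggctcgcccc
tRNA-Asn, chrIII:127716-127789, plus strand: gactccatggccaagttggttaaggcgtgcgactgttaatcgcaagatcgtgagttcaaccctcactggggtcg
tRNA-Gly (SUF16), chrIII:142701-142771, minus strand: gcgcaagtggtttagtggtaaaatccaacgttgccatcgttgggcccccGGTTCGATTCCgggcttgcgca
tRNA-Met, chrIII:149920-149991, plus strand: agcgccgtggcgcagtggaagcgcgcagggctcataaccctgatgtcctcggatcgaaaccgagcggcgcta
tRNA-Lys, chrIII:151284-151356, minus strand: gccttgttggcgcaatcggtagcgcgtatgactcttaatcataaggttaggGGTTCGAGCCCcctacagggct
tRNA-Gln, chrIII:168301-168372, minus strand: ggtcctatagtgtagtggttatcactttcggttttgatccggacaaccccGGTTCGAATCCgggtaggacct

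The B box letters, searched on both strands, were found in 5 of the 7 genes, all but tRNA-Asn and tRNA-Met, and in 46.2% of the 275 nuclear tRNA genes. No match says only that these letters are absent from a gene. The number of nuclear tRNA genes with an identical sequence, the gene itself included, ran from 2 for tRNA-Pro to 16 for tRNA-Gly. It was 13 for tRNA-Glu, 10 for tRNA-Asn, 5 for tRNA-Met, 14 for tRNA-Lys and 7 for tRNA-Gln. Copies on other chromosomes are not listed as deleted in the genotype.

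The 9 neighbours differ in how they face the tRNA genes. In 7 of the 9 the start of the reading frame faces the nearest tRNA gene, and in KCC4 and FEN2 the end does. The shortest distances are 186 bases, between the end of KCC4 and tRNA-Glu, and 301 bases, between the start of RHB1 and tRNA-Gln. The longest distance to the nearest tRNA gene is that of FEN2, at 2513 bases. Coding length had a median of 873 bases, against 1198 bases for annotated reading frames, and GC content a median of 39.7%, against 39.8%. None of the 9 shared a 31-base word with another annotated reading frame. The estimated counts were whole numbers in all 4 libraries for every one of them but KCC4, whose counts were fractional in all 4, so part of its reads were divided with another listed frame. Most of the sites also hold long terminal repeats of Ty retrotransposons. Repeats are annotated between SRD1 and MAK32, between SUF2 and DFP3, between SUF16 and RBP95, and between tRNA-Gln and FEN2.

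The members were expressed at different levels, most of them low. Per length, RBP95 was highest, with 48.87 and 49.80 TPM in the tDNA-less libraries and 62.88 and 58.80 TPM in wild type. SRD1 followed with 25.31 and 34.83 TPM in the tDNA-less libraries, against 39.78 and 37.15 TPM in wild type. RHB1 had 14.62 and 19.90 TPM in the tDNA-less libraries, against 25.46 and 21.58 TPM in wild type. These were the 3 members whose wild-type mean was above the median of 20.3 TPM over tested reading frames. FEN2, MAK32, CTO1, KCC4, YCR006C and DFP3 came below that median in wild type, with means of 10.69, 9.96, 7.67, 6.52, 5.73 and 4.37 TPM in that order. In wild type the libraries of FEN2 and MAK32 overlapped, and those of YCR006C, from 4.12 to 7.33 TPM, overlapped with those of CTO1, KCC4 and DFP3, so the order within each of these pairs does not exceed their spread. The wild-type libraries of CTO1 and KCC4, of KCC4 and DFP3, and of MAK32 and CTO1 did not overlap.

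**Figure D1:**
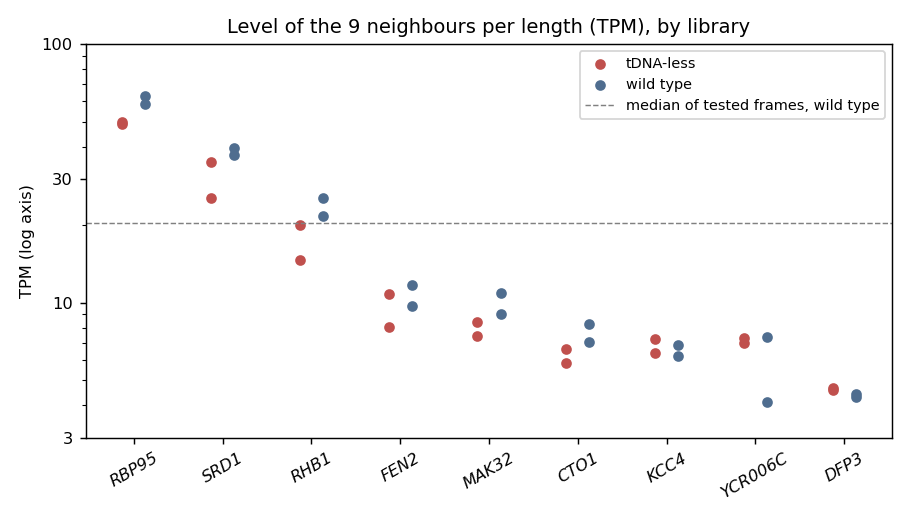
Level per length (TPM, log axis) of each of the 9 reading frames, 1 point per library, tDNA-less on the left and wild type on the right of each pair; the dashed line is the wild-type median of 20.3 TPM over tested frames. RBP95, SRD1 and RHB1 have wild-type libraries above the line, and the wild-type libraries of the other 6 lie below it.

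No member passed the test. All 9 passed the filter on low counts, 0 of 9 were called (background 1.5%; 0.806% higher and 0.693% lower), and 0 of 9 had an unadjusted p under 0.05, against 11.8% of all reading frames in the same edgeR test. DESeq2 and limma-voom also called 0, with 0 at an unadjusted p under 0.05. In CPM the libraries of the strains did not overlap for 7 of the 9, with tDNA-less lower in 4 and higher in 3. Over all tested reading frames 42.8% did not overlap, 20.8% lower and 22% higher. In TPM, KCC4 and YCR006C overlapped between the strains as well as FEN2, while SRD1 did not. The log2 fold change was below 0 in 6 of the 9, against 49.4% of all. The members' median log2 fold change was -0.17, against 0.003 over all tested reading frames, and the median absolute value was 0.20, against 0.13. Their median was -0.087 without tDNA-less replicate 1, -0.19 without tDNA-less replicate 2, -0.14 without wild-type replicate 1 and -0.098 without wild-type replicate 2. On the log2(TPM + 1) scale it was -0.26, where that of all reading frames was -0.11. The 95% interval of the fold change lay within 2-fold in both directions for 8 of the 9, all but YCR006C, and within 1.5-fold for KCC4, RBP95, SRD1 and FEN2. These intervals are from the fitted model, 1 gene at a time, without adjustment. With 2 libraries a strain, the p-values rest on the model's estimate of the spread over all reading frames.

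**Figure D2:**
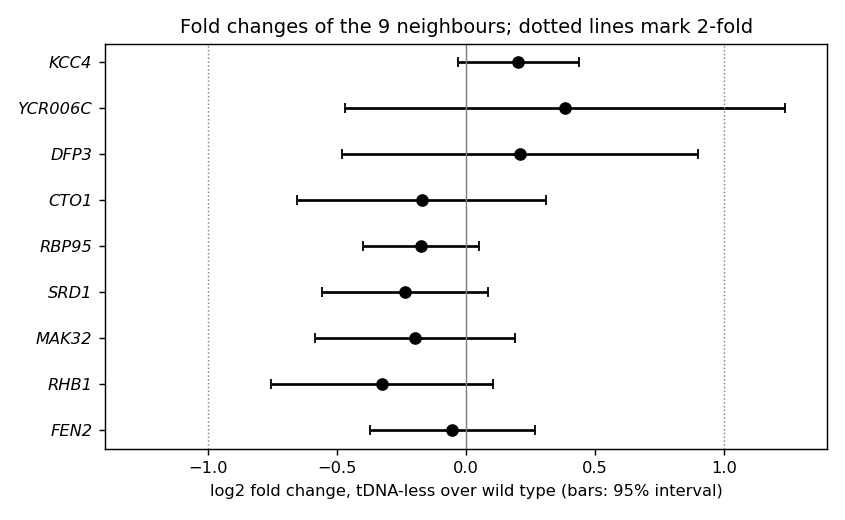
Log2 fold change of each of the 9 reading frames, tDNA-less over wild type, from edgeR, with its 95% interval; dotted lines mark 2-fold. Every interval includes 0, and only that of YCR006C, which reaches 1.24, crosses a dotted line.

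At tRNA-Glu, KCC4 was measured on 1 side. KCC4 (YCL024W, 79162 to 82275, plus strand) encodes a protein kinase of the bud neck that associates with septins. It had 30.67 and 30.85 CPM in the tDNA-less libraries, against 26.35 and 27.08 CPM in wild type. In CPM both tDNA-less libraries were above both wild-type libraries, and the libraries of each strain lay close together. In TPM the strains overlapped, with 6.38 and 7.26 in the tDNA-less libraries against 6.19 and 6.86 in wild type. Its counts were fractional, so both measures depend on how reads were divided. The log2 fold change was 0.20 ± 0.10 (SE; edgeR, adjusted p = 0.496), with a 95% interval of the ratio from 0.977 to 1.35. On the log2(TPM + 1) scale the difference was 0.054, or 0.17 relative to the median of all reading frames.

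On the other side of the same tRNA gene the values were of another size. YCL021W-A, which starts 1086 bases away, had 1 and 0 estimated counts in the tDNA-less libraries, against 281 and 519 in wild type. The ratio of pooled counts, tDNA-less over wild type, was 0.00166, with an exact 95% binomial interval from 4.2e-05 to 0.00928 that covers counting error only. The fitted log2 fold change of -8.95 depends on the prior count. Beyond it, the Ty2 reading frame YCL019W had 168.6 and 162.1 CPM in the tDNA-less libraries, against 887.2 and 631.3 CPM in wild type. YCL020W, the shorter frame of the same element, had 19.92 and 17.56 CPM in the tDNA-less libraries and 88.87 and 81.90 CPM in wild type. Other reading frames hold 98.2% of the 31-base words of YCL019W and 100% of those of YCL020W, so how their reads were divided is uncertain. YCL020W lies within the span of YCL019W, and each counts as another frame for the other. These shares therefore do not measure likeness to other Ty elements alone. Whether YCL021W-A and the Ty2 element are present in the genome of the tDNA-less strain was not tested, and the difference between the changes on the 2 sides was not tested either.

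At tRNA-Pro (SUF2) and tRNA-Asn, YCR006C and DFP3 were the flanking members. YCR006C (122530 to 123003, minus strand) encodes an uncharacterised protein and starts 573 bases from tRNA-Pro. It had 38 and 45 estimated counts in the tDNA-less libraries, against 22 and 67 in wild type. In CPM these were 3.35 and 3.05 in the tDNA-less libraries and 1.784 and 2.999 in wild type. Wild-type replicate 2 was close to the tDNA-less libraries, and wild-type replicate 1 was lower. The log2 fold change was 0.38 ± 0.38 (SE; edgeR, adjusted p = 0.763), with a 95% interval of the ratio from 0.722 to 2.35. It was 0.084 without wild-type replicate 1 and 0.84 without wild-type replicate 2, and at this depth an increase of 2-fold could not be told from none, while the interval leaves out a decrease of 2-fold.

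DFP3 (YCR007C, 126011 to 126730, minus strand) belongs to the DUP240 family of membrane proteins and lies between the 2 tRNA genes, 985 bases from tRNA-Asn and 2362 bases from tRNA-Pro. It had 46 and 54 estimated counts in the tDNA-less libraries, against 42 and 73 in wild type, or 4.05 and 3.66 CPM in the tDNA-less libraries and 3.41 and 3.27 CPM in wild type. Both tDNA-less libraries were above both wild-type libraries by less than 1 CPM. For DFP3 the log2 fold change was 0.21 ± 0.31 (SE; edgeR, adjusted p = 0.859), with a 95% interval of the ratio from 0.715 to 1.87. It was 0.13 without tDNA-less replicate 1 and 0.28 without tDNA-less replicate 2. In log2(TPM + 1) the difference was 0.073, or 0.19 relative to the median of all reading frames. Of the 10 DUP240 frames listed, DFP3 included, 0 were called. By edgeR 0 had an unadjusted p under 0.05, against 11.8% of all reading frames. Of the 10, 5 were below 0 and 5 above 0, with a median log2 fold change of 0.027. That median was -0.045 without tDNA-less replicate 1, 0.195 without tDNA-less replicate 2 and 0.132 without wild-type replicate 1. With a minimum mean of 50 counts it was -0.052 over 7 frames, and on the log2(TPM + 1) scale -0.077, or 0.037 relative to the median of all reading frames.

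Other frames beside these 2 tRNA genes differed between the strains. SAT4, a protein kinase of salt tolerance that starts 680 bases from tRNA-Asn, had 23.62 and 26.51 CPM in the tDNA-less libraries, against 76.38 and 77.07 CPM in wild type. Its log2 fold change was -1.61 ± 0.10 (SE; edgeR, adjusted p = 2.43e-05). CIT2, the peroxisomal citrate synthase, lies 1248 bases from tRNA-Pro, past YCR006C. It had 66.89 and 79.66 CPM in the tDNA-less libraries, against 23.51 and 31.15 CPM in wild type, and a log2 fold change of 1.41 ± 0.14 (SE; edgeR, adjusted p = 0.000915). YCR006C lies between CIT2 and tRNA-Pro and its direction was upward with a wide interval. DFP3 and SAT4 both start towards tRNA-Asn, and DFP3 is the one of the pair with no call. The difference between DFP3 and SAT4 in their changes was not tested. The calls of SAT4 and CIT2 held in 14 of 14 fits, with highest adjusted p-values of 0.00353 and 0.0434.

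At tRNA-Gly (SUF16), both flanks are members and both start towards the tRNA gene. CTO1 (YCR015C, 141217 to 142170, minus strand), required for cold tolerance, starts 530 bases away, and the snoRNA gene SNR33 is annotated in between. It had 7.32 and 7.53 CPM in the tDNA-less libraries, against 7.95 and 8.73 CPM in wild type. Both tDNA-less libraries were below both wild-type libraries. For CTO1 the log2 fold change was -0.17 ± 0.21 (SE; edgeR, adjusted p = 0.823), with a 95% interval of the ratio from 0.636 to 1.24. It was -0.098 without wild-type replicate 2 and -0.24 without wild-type replicate 1.

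RBP95 (YCR016W, 143634 to 144506, plus strand), an RNA-binding assembly factor of the large ribosomal subunit, starts 862 bases from the same tRNA gene on the other side. It had 54.64 and 50.58 CPM in the tDNA-less libraries, against 63.57 and 55.49 CPM in wild type. The tDNA-less libraries were lower without overlap, and tDNA-less replicate 1 lay within 1 CPM of wild-type replicate 2. The log2 fold change was -0.18 ± 0.10 (SE; edgeR, adjusted p = 0.53), with a 95% interval of the ratio from 0.758 to 1.03. It was -0.085 without wild-type replicate 1 and -0.27 without wild-type replicate 2. Of 16 listed genes of early large-subunit assembly and pre-rRNA processing, 0 were called by any of edgeR, DESeq2 and limma-voom. In the same 16 genes 8 had an unadjusted p under 0.05 by edgeR, 7 by DESeq2 and 8 by limma-voom, against 11.8% of all reading frames by edgeR. All 16 had a fold change below 0, against 49.4% of all, and the median log2 fold change was -0.17. The list was chosen with earlier results of these data known, and its genes come from the same 4 libraries. These counts are therefore not a test of the list. The count below 0 was 14 without tDNA-less replicate 2 and 13 without wild-type replicate 1. DBP7, an RNA helicase of this step, had the largest difference of the list, -0.33 ± 0.08 (SE; edgeR, adjusted p = 0.116), and was named after its value was seen.

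**Figure D3:**
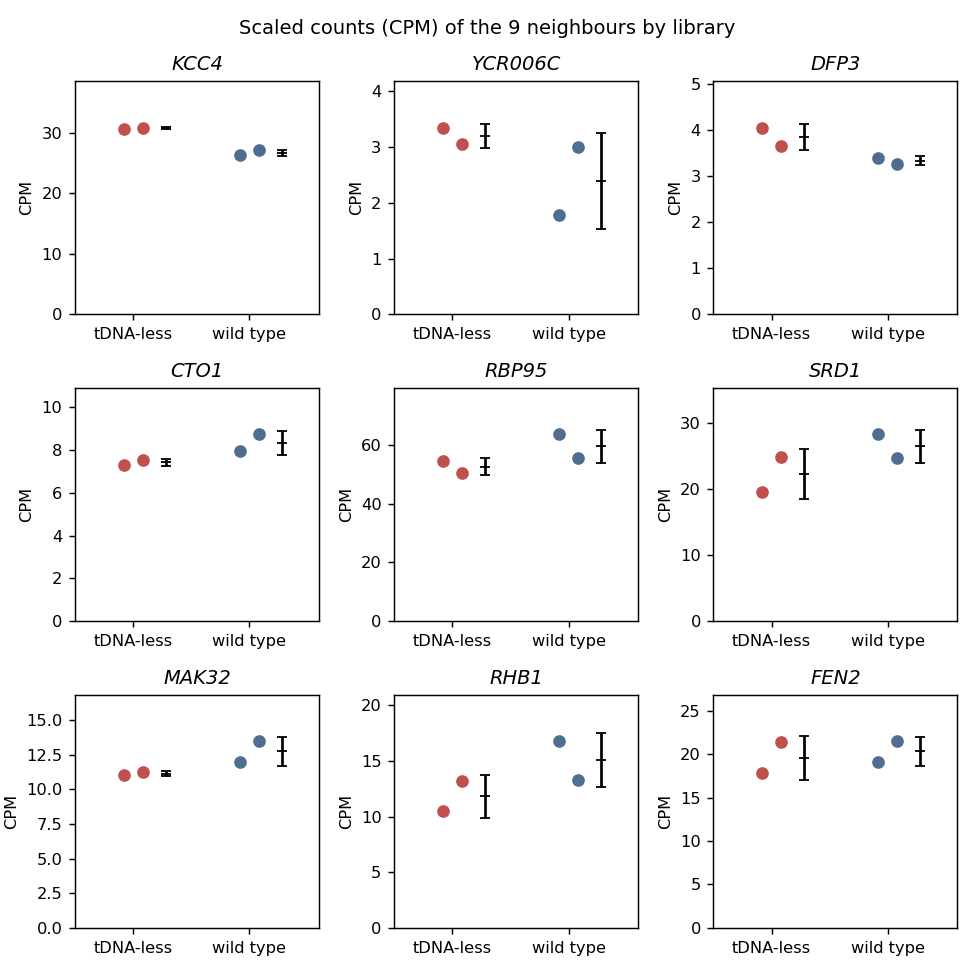
CPM of each of the 9 reading frames in every library, tDNA-less on the left and wild type on the right; points are libraries and black bars the mean ± SD (n = 2). The libraries of the strains overlap for SRD1 and FEN2 and lie apart, by small amounts, for the other 7.

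The tRNA-Met and tRNA-Lys genes lie together between SRD1 and MAK32. SRD1 (YCR018C, 148238 to 148903, minus strand), a zinc finger protein of pre-rRNA processing, starts 1016 bases from tRNA-Met. It had 19.65 and 24.95 CPM in the tDNA-less libraries, against 28.30 and 24.75 CPM in wild type. The groups overlapped, since tDNA-less replicate 2 was above wild-type replicate 2. For SRD1 the log2 fold change was -0.24 ± 0.14 (SE; edgeR, adjusted p = 0.569), with a 95% interval of the ratio from 0.678 to 1.06. It was -0.087 without tDNA-less replicate 1, -0.15 without wild-type replicate 1 and -0.43 without tDNA-less replicate 2.

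MAK32 (YCR019W, 152837 to 153928, plus strand), needed for the stability of particles of the L-A double-stranded RNA virus, starts 1480 bases from tRNA-Lys. It had 11.02 and 11.25 CPM in the tDNA-less libraries, against 12 and 13.47 CPM in wild type. Both tDNA-less libraries were below both wild-type libraries. The log2 fold change was -0.20 ± 0.17 (SE; edgeR, adjusted p = 0.71), with a 95% interval of the ratio from 0.666 to 1.14. It was -0.11 without wild-type replicate 2 and -0.28 without wild-type replicate 1. MAK31, another gene of L-A maintenance, lies 3473 bases from tRNA-Lys, and had 12.60 and 10.64 CPM in the tDNA-less libraries, against 11.68 and 12.44 CPM in wild type. Of 12 listed genes of L-A maintenance and its antagonists, edgeR, DESeq2 and limma-voom each called 0. In that order, 2, 2 and 3 genes had an unadjusted p under 0.05, against 11.8% of all reading frames in edgeR. Of the 12, 7 were below 0 and 5 above 0, and the median log2 fold change was -0.009. On the log2(TPM + 1) scale 10 were below 0 and 2 above, with a median of -0.138, or -0.023 relative to that of all reading frames. Without tDNA-less replicate 1 the median was -0.127, without wild-type replicate 2 it was -0.073, and without tDNA-less replicate 2 it was 0.056.

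At tRNA-Gln, RHB1 and FEN2 are the flanks. RHB1 (YCR027C, 167370 to 167999, minus strand) encodes a GTPase related to Rheb, which in yeast acts on arginine uptake and canavanine resistance. It is the member whose start lies nearest to a tRNA gene, and both are read on the minus strand. The 300 bases before its start (chrIII:168000-168299, minus strand, 5′ to 3′) run up to 1 base short of the tRNA gene. They are shown because they hold what separates the pair. Capitals mark the first run of 5 T in the sequence shown, which begins 2 bases after the tRNA gene. The 1 base between them is not shown, so the run itself may begin there. RNA polymerase III is known to stop at such runs, and one of 5 or more T was found within 30 bases after all 7 tRNA genes and after 97.8% of nuclear tRNA genes.
RHB1 upstream: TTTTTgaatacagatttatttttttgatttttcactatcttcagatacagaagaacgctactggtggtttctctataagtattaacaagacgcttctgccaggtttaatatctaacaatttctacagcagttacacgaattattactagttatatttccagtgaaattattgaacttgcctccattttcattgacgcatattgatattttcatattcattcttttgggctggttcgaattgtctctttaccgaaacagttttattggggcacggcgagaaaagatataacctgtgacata

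RHB1 had 10.49 and 13.22 CPM in the tDNA-less libraries, against 16.78 and 13.34 CPM in wild type. Both tDNA-less libraries were lower, but tDNA-less replicate 2 and wild-type replicate 2 were nearly equal. For RHB1 the log2 fold change was -0.33 ± 0.19 (SE; edgeR, adjusted p = 0.55), with a 95% interval of the ratio from 0.592 to 1.07, and it was -0.17 without wild-type replicate 1, -0.18 without tDNA-less replicate 1, -0.51 without tDNA-less replicate 2 and -0.49 without wild-type replicate 2. Of 11 listed genes of the TOR complexes and basic amino acid permeases, edgeR, DESeq2 and limma-voom each called 0. Against 11.8% of all reading frames in edgeR, each tool gave 1 gene of the 11 an unadjusted p under 0.05. In edgeR that gene was CAN1, the arginine permease, named after its value was seen. It had 69.09 and 63.87 CPM in the tDNA-less libraries, against 80.92 and 80.92 CPM in wild type, which carries the can1-100 allele.

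FEN2 (YCR028C, 170886 to 172424, minus strand), the plasma membrane symporter of pantothenate, ends 2513 bases from tRNA-Gln. It had 17.80 and 21.36 CPM in the tDNA-less libraries, against 19.14 and 21.48 CPM in wild type. The libraries of the strains overlapped. The fitted log2 fold change of FEN2 was -0.054 ± 0.14 (SE; edgeR, adjusted p = 0.934), with a 95% interval of the ratio from 0.772 to 1.2. It was above 0 without tDNA-less replicate 1 (0.063) and without wild-type replicate 2 (0.038), and it was -0.195 without tDNA-less replicate 2 and -0.135 without wild-type replicate 1. Of 9 listed genes of pantothenate and coenzyme A synthesis, edgeR, DESeq2 and limma-voom each called 0. In that order, 2, 1 and 2 genes had an unadjusted p under 0.05, against 11.8% of all reading frames in edgeR. The median log2 fold change of the list was -0.051, with 6 below 0 and 3 above. It was 0.002 without wild-type replicate 1, -0.164 without wild-type replicate 2, -0.085 without tDNA-less replicate 1 and -0.086 without tDNA-less replicate 2. On the log2(TPM + 1) scale all 9 were below 0, with a median of -0.178, or -0.063 relative to that of all reading frames. For KCC4, the corresponding list of 14 bud neck and morphogenesis checkpoint genes also held 0 calls by these tools. Each tool gave 1 of the 14 an unadjusted p under 0.05, against the same 11.8% of all reading frames in edgeR. Of the 14, 12 were above 0, with a median log2 fold change of 0.069, but 4 were above 0 on the log2(TPM + 1) scale, with a median of -0.063, or 0.051 relative to the median of all reading frames.

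Around the 7 tRNA genes the calls fell on frames other than the 9. The 9 leave out SAT4 and YCL021W-A, which are called immediate flanks of these genes. The split therefore depends on which frames were taken, and the 9 alone do not describe the flanks in general. Within 5 kb of these genes 29 reading frames were tested and 5 were called, or 17.2%. Within 5 kb of tRNA genes on the other nuclear chromosomes, 26 of 1150 reading frames were called, or 2.26%. Of the 29, the 20 that are not members held all 5 calls (25%, against 1.5% of all tested reading frames), 1 higher and 4 lower. That 25% leaves out the 9 members, which held 0 calls. The 5 called frames were CIT2, SAT4, YCL021W-A, YCL019W and YCL020W. YCL019W and YCL020W are frames of the same Ty2 element, so the 5 calls are not 5 separate neighbours. Whether that element and YCL021W-A are present in the tDNA-less genome was not tested. The remaining 15 had log2 fold changes from -0.42 to 0.53. On chromosome III as a whole 7 of 153 reading frames were called, or 4.58%. These 7 include the 5 above and LEU2 (edgeR, adjusted p = 0.000915), at which the listed genotypes differ. Within 1 kb of tRNA genes on the other nuclear chromosomes, which the genotype does not list as deleted, 12 of 378 reading frames were called, or 3.17%, 9 higher and 3 lower, with a median absolute log2 fold change of 0.14. In 8 of these 12, over 50% of the 31-base words also occur in another reading frame. The same count was not made over the 378, so whether 8 of 12 is unusual cannot be said. Within 1 kb of the 7 tRNA genes lie 6 of the 9 members, with 0 calls and a median absolute log2 fold change of 0.21, and SAT4, which was called. The difference between the members and these other groups was not tested.

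**Figure D4:**
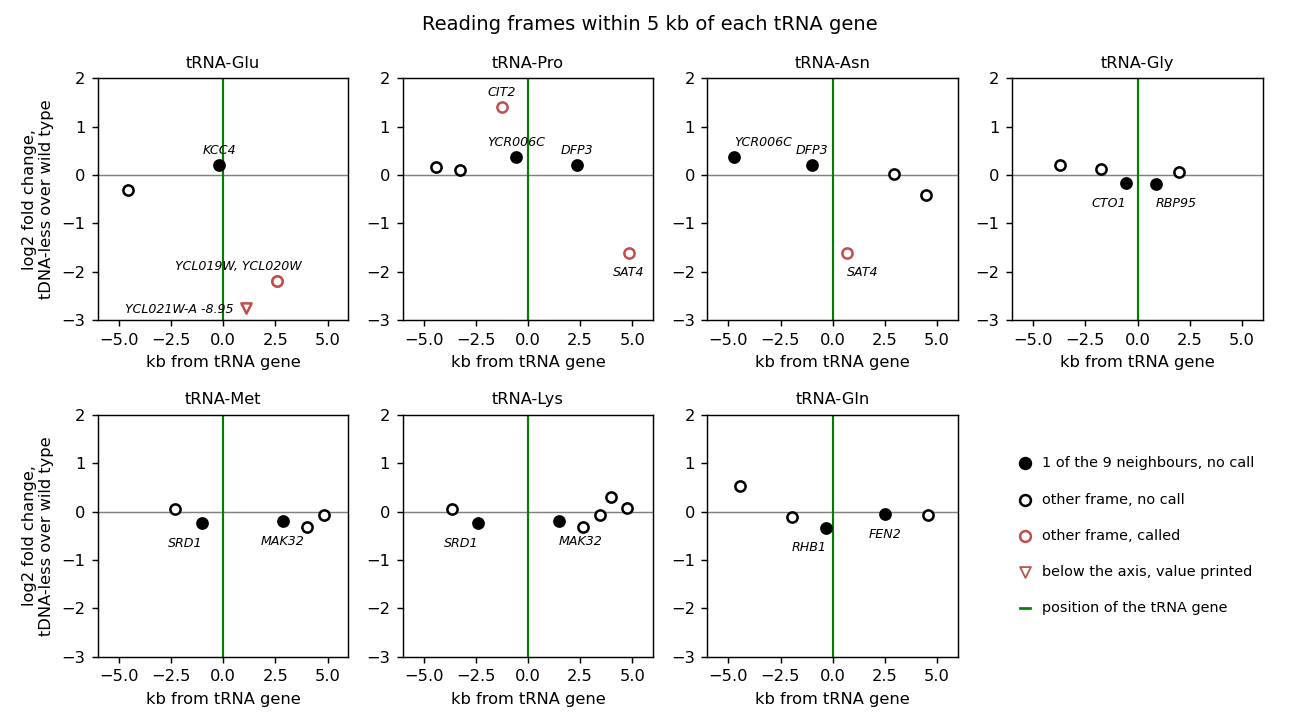
Log2 fold change, tDNA-less over wild type, of tested reading frames within 5 kb of each of the 7 tRNA genes, against distance from the tRNA gene in kb (to the nearest end of the frame); filled points are the 9 members, open red points are called frames. The members lie between -0.33 and 0.38, and the called frames are CIT2 at 1.41, SAT4 at -1.61, the Ty2 frames at -2.20 and -2.19, and YCL021W-A below the axis at -8.95.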

How the data were processed

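RNA was measured in 2 tDNA-less and 2 wild-type libraries, made with a directional kit per the labels. The deposited tables list each reading frame with its estimated count and TPM; kallisto, sleuth and sacCer3 are named in the submitters' processing notes. No source used here gives a version, an index or a strand setting. In the deposited tables estimated counts need not be whole, and TPM divides them by effective length and library total. Deposited lengths are coding lengths in bases. The tables hold no coordinates, so positions and sequences came from RefSeq assembly R64, which holds 6010 of the 6706 names.

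Estimated counts were rounded, filtered with filterByExpr (minimum 10), scaled by TMM and compared with edgeR 4.0.16 (quasi-likelihood) in R 4.3.3, with Benjamini-Hochberg adjustment over 6205 reading frames. SE is the absolute log2 fold change over the square root of F. Alternatives used DESeq2 1.42.0 and limma 3.58.1. Replicates of a strain differed by more than counting noise (chi-square per degree of freedom 45.9 in tDNA-less and 62.8 in wild type), and nothing beyond the labels says whether cultures were separate. The members, gene lists and tests were chosen with earlier results of these data known. Genes named were the 9 members, called frames within 5 kb of their tRNA genes, and up to 4 called genes per list (none was called by edgeR in the fit without a block). LEU2, HIS3 and the 4 most abundant reading frames were named too. Others were chosen after their values were seen: MAK31, DBP7 and CAN1.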

Additional observations from a re-analysis of the deposited data

How the results depend on the processing

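The count of called members was 0 under all 13 alternatives, and 114 refitted fold changes of members kept their direction. The other 2 were FEN2 without tDNA-less replicate 1 (0.063) and without wild-type replicate 2 (0.038); with 1 library left out its log2 fold change ranged from -0.195 to 0.063. An unadjusted p under 0.05 was found for RHB1 on both TPM scales, for RBP95 with the block, for SRD1 without tDNA-less replicate 2, and for RBP95 and RHB1 without wild-type replicate 2. The count over all reading frames, 93, was 52 on the log2(TPM + 1) scale (17 higher, 35 lower), 39 on the log2(TPM + 0.1) scale (11 higher, 28 lower) and 282 with replicate number added as a block. It ranged from 21 to 91 with 1 library left out; the cause was not tested. The block called 0 members, but 2 of the 16 early large-subunit genes, 1 of the 9 pantothenate and coenzyme A genes and 1 of the 11 TOR and permease genes; same-numbered libraries deviated together with a correlation of 0.24, and nothing in the labels pairs them. Beside tRNA genes of other chromosomes, 6 frames were called within 0.5 kb, against 12 within 1 kb, where 248 and 378 were tested. With a mean count of at least 50, YCR006C was not tested. Depth limits YCR006C and DFP3, with 22 to 73 counts a library.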
